A study of Mus musculus with 2 samples.

Results

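Lipid droplets are the stores in which hepatocytes keep triglyceride, and 9 genes of these droplets and of triglyceride lipolysis were followed here across the liver lobule. They were Hsd17b13, Plin2, Plin5, Fitm1, Cidec, Pnpla2, G0s2, Fabp1 and Fabp5, chosen by name from the 19465 genes of the count tables. Each symbol had 1 row, and all 9 are protein-coding. The libraries came from 1 liver section of 1 AEG-1-WT mouse and 1 section of 1 AEG-1-C75S mouse, naïve females of 8 weeks and littermates from matings of heterozygotes. In AEG-1-C75S, cysteine 75 of AEG-1 (the product of Mtdh) is replaced by serine in the germline by CRISPR/Cas9, so that AEG-1 cannot be palmitoylated in any cell, and AEG-1-WT littermates carry the unedited protein. Neither mouse was treated, and the same lobe was taken from both.

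A droplet is a core of neutral lipid inside a single layer of phospholipid, on which perilipins and other coat proteins sit and control the access of lipases. The lipase of Pnpla2 takes the first fatty acid off a triglyceride, the protein of G0s2 inhibits it, and small fatty acid binding proteins carry the released acids through the cytosol. Hepatocytes near the portal vein and near the central vein differ in blood supply and in metabolic tasks, a pattern called zonation. The question of the study was how gene expression along this axis differs when AEG-1 cannot be palmitoylated.

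Gene expression was profiled by 10x Visium for fixed tissue, where probe pairs joined on an RNA are counted on barcoded spots as unique molecular identifiers (UMIs). The sections are called WT and C75S from here on. Each spot is a small region that holds several cells of different types, and a higher level can come from more cells of a type or from more RNA per cell, which cannot be told apart. Spots with more than 50000 UMIs were left out, which kept 2309 spots with 42246988 UMIs in WT and 2163 spots with 41674347 UMIs in C75S (medians of 16830 and 18808 UMIs per spot). Of the barcodes, which mark positions on a slide, 1896 occur in both sections. Mtdh had 3143 UMIs in WT and 3056 in C75S, and where its probes lie relative to the altered codon is not given in the sources used here. Alb, Apoa1, Ttr and Hnf4a, the hepatocyte markers, summed to 167419 and 172500 CPM, so that both sections were liver by these markers. Levels are CPM, the UMIs of a gene scaled to 1000000 UMIs of the same spots. They are compared for 1 gene between places or sections and never between genes, whose probes differ. With 1 section per genotype no test between genotypes is possible, spots are not replicates, and every interval is a 95% interval of counting error only. PCR and tissue variation are not in these intervals, and each ratio compares those libraries.

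To place spots along the lobule, each section was divided into quintiles of equal size by the ratio (Cyp2f2 + 1)/(Cyp2e1 + 1) of UMIs. Cyp2f2 is high near portal veins and Cyp2e1 near central veins. Quintile 1 was the most portal and quintile 5 the most central. Genes not used for the ratio followed it in both sections: Hal went from 363 CPM in quintile 1 to 83.9 in quintile 5 in WT and from 319.8 to 83.8 in C75S, and Cyp1a2 went from 163 to 871 CPM and from 167 to 760.3 CPM. The quintiles are ranks within a section, so the same number does not stand for the same ratio in both. With limits shared by the sections, quintile 5 would hold 578 spots of WT and 317 of C75S.

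Most of the 9 genes differed little between the sections. A gene was counted as past the fold when its log2 ratio (C75S over WT) was over 0.5 or under -0.5, provided that the sections held at least 50 UMIs together, a minimum that all 9 met. Past the fold were 2 of the 9, Plin2 and Cidec, both higher in C75S, beside 10.4% of the 12004 genes compared (3.33% higher and 7.07% lower). The median of the 9 log2 ratios was 0.09, with a range from -0.22 for Fitm1 to 0.91 for Cidec, against a median of -0.05 over all genes. Along the axis, Hsd17b13 was portal and Fitm1 was central in both sections, past the same fold, and the other genes compared were flatter.

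**Figure D1:**
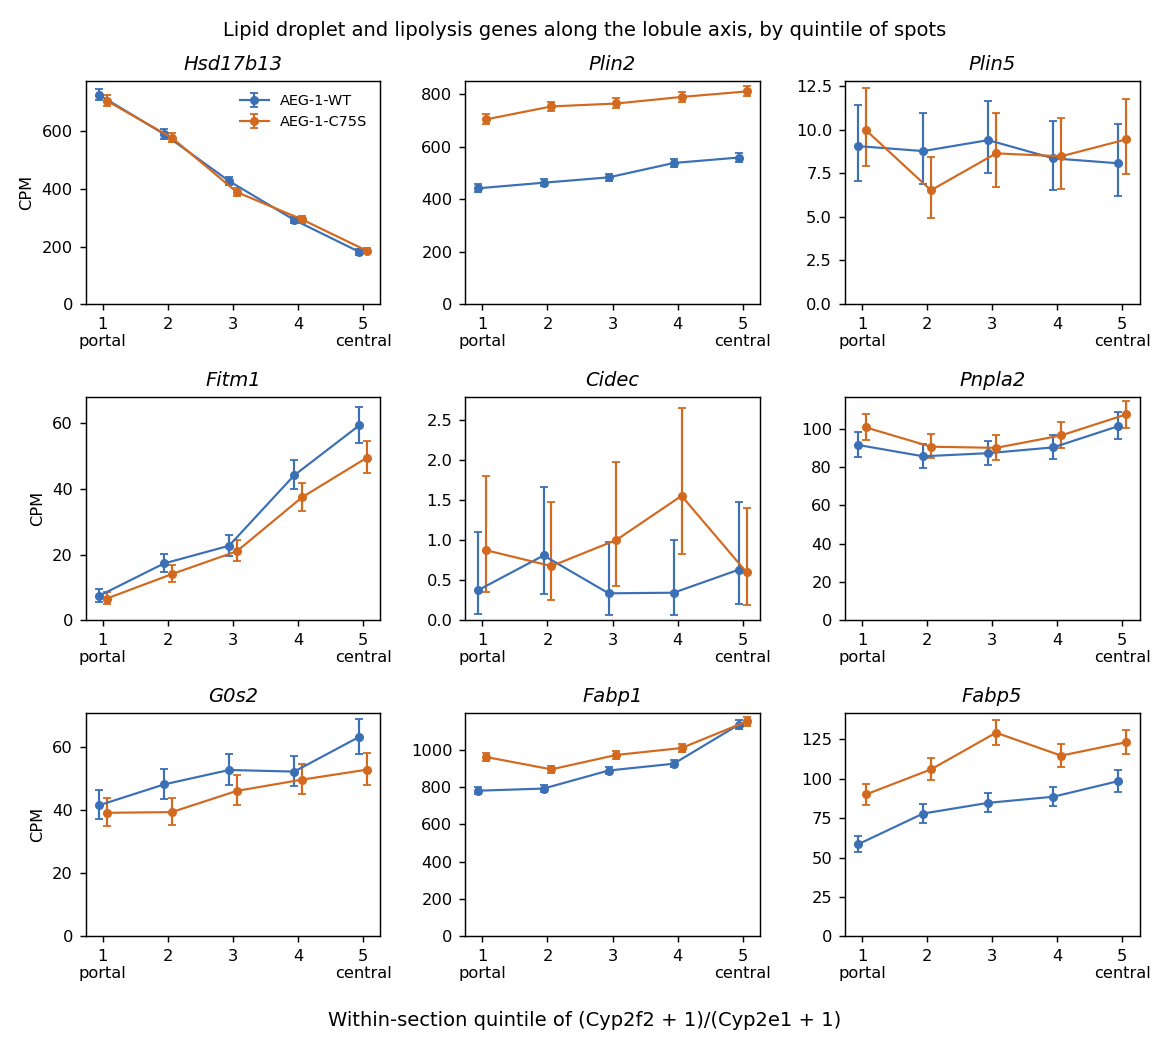
Level in CPM (y axis, from 0, a scale for each gene) in quintiles 1 (portal) to 5 (central) of the WT and C75S sections, with 95% Poisson intervals of counting error as bars. Hsd17b13 and Fitm1 run in opposite directions, with Hsd17b13 at similar levels in both sections and Fitm1 lower in C75S, while the Plin2 line of C75S, at 705 to 811 CPM, lies above that of WT, at 442 to 559 CPM, in every quintile.

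The bases upstream of the RefSeq start sites (GRCm38.p6, the genome of mm10) are shown for 4 of the genes: Hsd17b13 and Fitm1 with opposite gradients, Plin2 with the largest well counted difference between sections, and Fabp1, whose gradient was flatter in C75S. Each run is 250 bases, 5′ to 3′ on the strand of the gene, ending at the base before the start site, and capitals mark matches to the motifs named after them. Hsd17b13 is read from chr5:103977389-103977638 on the minus strand, Fitm1 from chr14:55575424-55575673 on the plus strand, Plin2 from chr4:86670060-86670309 on the minus strand and Fabp1 from chr6:71199629-71199878 on the plus strand. The Plin2 window overlaps the outer end of the listed span of the gene.
Hsd17b13: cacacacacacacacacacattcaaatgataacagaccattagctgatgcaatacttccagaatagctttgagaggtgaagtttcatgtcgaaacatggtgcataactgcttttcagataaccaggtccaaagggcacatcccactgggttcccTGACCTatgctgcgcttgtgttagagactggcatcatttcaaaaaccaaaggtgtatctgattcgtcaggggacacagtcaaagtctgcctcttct
Fitm1: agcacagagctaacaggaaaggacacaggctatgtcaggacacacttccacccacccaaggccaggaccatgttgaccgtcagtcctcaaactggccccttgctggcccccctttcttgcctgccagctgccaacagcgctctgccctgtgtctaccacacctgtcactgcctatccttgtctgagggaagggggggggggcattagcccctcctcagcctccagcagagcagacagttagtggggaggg
Plin2: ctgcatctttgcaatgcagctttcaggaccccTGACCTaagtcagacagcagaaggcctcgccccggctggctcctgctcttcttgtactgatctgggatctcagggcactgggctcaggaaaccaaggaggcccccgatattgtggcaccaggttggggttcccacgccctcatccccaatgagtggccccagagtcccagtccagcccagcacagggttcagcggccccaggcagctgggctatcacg
Fabp1: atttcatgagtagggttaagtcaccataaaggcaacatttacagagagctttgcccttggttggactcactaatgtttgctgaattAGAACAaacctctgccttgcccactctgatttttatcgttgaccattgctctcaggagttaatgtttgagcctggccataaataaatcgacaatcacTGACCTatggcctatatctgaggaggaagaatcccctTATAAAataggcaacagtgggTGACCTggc

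These windows differ in base composition as well as in motifs. G and C made up 44.8% of the Hsd17b13 window and 42.8% of that of Fabp1, against 60.4% for Fitm1 and 61.6% for Plin2, beside a median of 52.4% over 32851 RefSeq windows of this length. The motifs were searched on both strands, and none contains another. They were the nuclear receptor core AGGTCA, the E-box CACGTG, the D-box TTATGCAA, the TCF/LEF motif CTTTGAT, the FOXO motif TGTTTAC, the sterol element TCACNCCAC, the HNF4 motif CAAAGTCCA, the CREB motif TGACGTCA, the TATA box TATAAA, the glucocorticoid core TGTTCT and the C/EBP motif TTGCGCAA. AGGTCA stood in the windows of Hsd17b13, Plin2 and Fabp1, in reverse as TGACCT each time, and at 2 places in that of Fabp1. It also stood in 1 window of Plin5, so that 4 of the 10 windows found for 8 of the genes held it, beside 14.02% of all windows. Fabp1 also held TATAAA at 30 bases before its start and, in reverse, TGTTCT at 164 bases, which 12.4% and 16.1% of all windows hold. None of the 11 motifs was in the Fitm1 window, and no window of these genes held any of the others, each of which occurs in between 0.164% and 6.02% of all windows. A match is a run of letters, and binding was not measured.

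Hsd17b13, which encodes a droplet enzyme found mainly in hepatocytes, had the steepest portal gradient of the 9 genes. Its level over the whole section was almost the same in both. The gene lies at chr5:103955442-103977388 on the minus strand, and it is also on the methods' list of periportal markers. In WT the levels from quintile 1 to quintile 5 were 728, 591, 428, 293 and 182 CPM. In C75S they were 707, 578, 389, 294 and 185 CPM. Each of the 4 steps was lower than the one before beyond counting error in both sections, which gave 4.01-fold more in quintile 1 than in quintile 5 in WT (log2 2.002, 1.92 to 2.09) and 3.82-fold more in C75S (log2 1.93, 1.85 to 2.01). On this axis the gradients did not differ beyond counting error (difference -0.07, -0.19 to 0.05). With limits shared by the sections the difference was 0.21 (0.09 to 0.34). With the axis from Hal, Gls2 and Sds over Cyp1a2 and Oat it was -0.13 (-0.24 to -0.02), so its sign depended on the axis. The log2 ratios of C75S over WT by quintile ranged from -0.29 to -0.04 with the shared limits. Over whole sections there were 18739 UMIs (444 CPM) in WT and 17946 (431 CPM) in C75S, a log2 ratio of -0.04 (-0.07 to -0.01). That small difference is within what the scaling can turn round, since it was 0.01 after TMM scaling. Single spots ranged from 70.1 CPM at the 5th percentile to 914 at the 95th in WT and from 71.9 to 935 in C75S.

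Fitm1, whose product sits in the endoplasmic reticulum, binds triglyceride and takes part in the formation of droplets, ran the other way. It is a short gene at chr14:55575674-55576952 on the plus strand. From quintile 1 to quintile 5 it had 7.42, 17.3, 22.7, 44.1 and 59.4 CPM in WT and 6.60, 14.1, 21.0, 37.4 and 49.6 CPM in C75S. All 4 steps were upward beyond counting error in each section, and quintile 5 exceeded quintile 1 by 8.01-fold in WT (log2 portal over central -3.001, -3.42 to -2.61) and by 7.51-fold in C75S (-2.91, -3.35 to -2.49). The gradients of the sections differed by 0.09 (-0.47 to 0.66), an interval that is wide because quintile 1 held only 59 and 53 UMIs. Fitm1 was slightly lower in C75S, with 1075 against 1269 UMIs (log2 ratio -0.22, -0.34 to -0.10), and it was the lower of the sections in every quintile, by -0.30 to -0.11. This order did not hold in every quintile with equal weight per spot (highest ratio 0.03), thinning to 3000 UMIs (0.22) or limits shared by the sections (0.21). In the quintiles ranked within each section, Fitm1 was lower in C75S beyond counting error in 2 of 5 and past the fold in none.

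Hsd17b13 and Fitm1 were the 2 of 8 genes past the fold along the axis in both sections, beside 6.02% of 9736 genes (2.22% portal and 3.8% central). Cidec did not reach 50 UMIs in the quintiles and was not among the 8. The median gene was itself slightly central, at -0.12 in WT and -0.10 in C75S. Relative to that median, Hsd17b13 stood at 2.12 and 2.03 and Fitm1 at -2.88 and -2.81. The flatter genes moved more in proportion: Plin2 stood at -0.22 and -0.11 and Pnpla2 at -0.03 and 0.003. G0s2 stood at -0.49 and -0.34, Fabp1 at -0.42 and -0.16, and Fabp5 at -0.63 and -0.36.

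**Figure D2:**
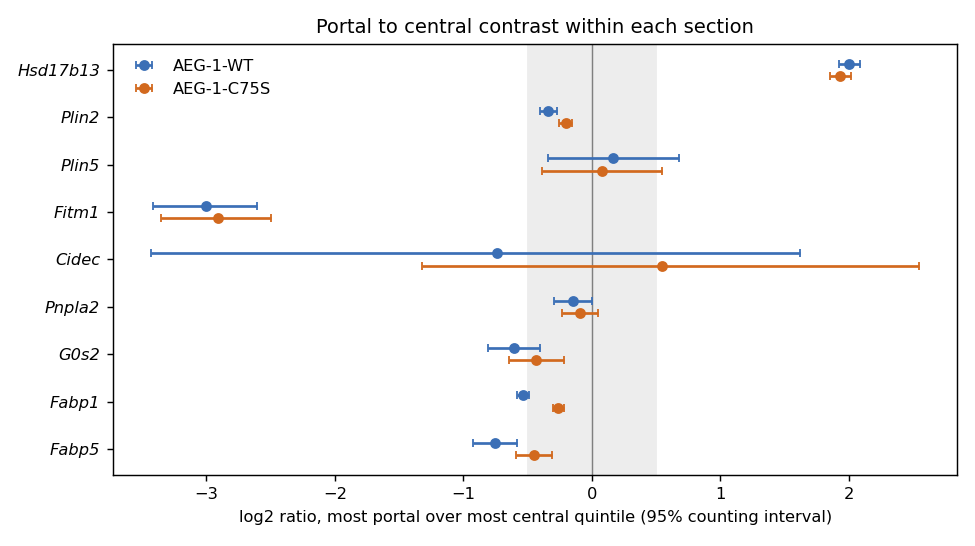
Log2 ratio of the level in the most portal over the most central quintile (x axis) for each of the 9 genes (y axis) in the WT and C75S sections, with 95% counting intervals as bars and the range within ±0.5 shaded. Hsd17b13 lies at 2.002 and 1.93 and Fitm1 at -3.001 and -2.91, while the interval of Cidec, which rests on 3 to 7 UMIs per quintile, spans zero in both sections.

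Plin2, which encodes the perilipin that coats droplets in most cells and whose protein is stabilised by stored lipid, showed the largest well counted difference between the sections. It lies at chr4:86626910-86670217 on the minus strand. It had 20996 UMIs in WT (497 CPM, 490.3 to 504) and 31898 in C75S (765 CPM, 757 to 774). The level was thus 1.54-fold higher in C75S (log2 ratio 0.62, 0.60 to 0.65), the 235th highest ratio of the 12004 genes. From quintile 1 to quintile 5 the levels were 442, 463, 483, 538 and 559 CPM in WT and 705, 754, 765, 790.2 and 811 CPM in C75S. The lowest quintile of C75S was therefore above the highest quintile of WT.

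The difference in Plin2 ran through the whole lobule and through most spots. The log2 ratios from quintile 1 to quintile 5 were 0.67, 0.70, 0.66, 0.55 and 0.54, past the fold in all 5, as for 1 of the 8 genes that could be compared in every quintile. Of 9685 genes, 2.45% were past the fold in one direction in all 5 quintiles (1% higher, 1.45% lower). In quintiles 4 and 5 the lower bounds were 0.50 and 0.48, close to the fold, and 4 of 5 quintiles passed it when the axis was built from Hal, Gls2 and Sds over Cyp1a2 and Oat (lowest 0.49) or when spots were thinned to 3000 UMIs (lowest 0.46). Within each section Plin2 was mildly central, with a log2 portal over central ratio of -0.34 (-0.40 to -0.28) in WT and -0.20 (-0.25 to -0.15) in C75S, and the gradient was flatter in C75S by 0.14 (0.05 to 0.22). With spots thinned to 3000 UMIs this difference was -0.01 (-0.21 to 0.19), an interval too wide to tell 0.14 from 0. With equal weight per spot and all UMIs, the ratios were -0.34 in WT and -0.23 in C75S. The median spot had 488 CPM in WT and 752 CPM in C75S, and 89.2% of the C75S spots were above the WT median. Plin2 was not gathered in a few spots, as the richest 5% of spots held 10.8% and 11.03% of its UMIs.

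**Figure D3:**
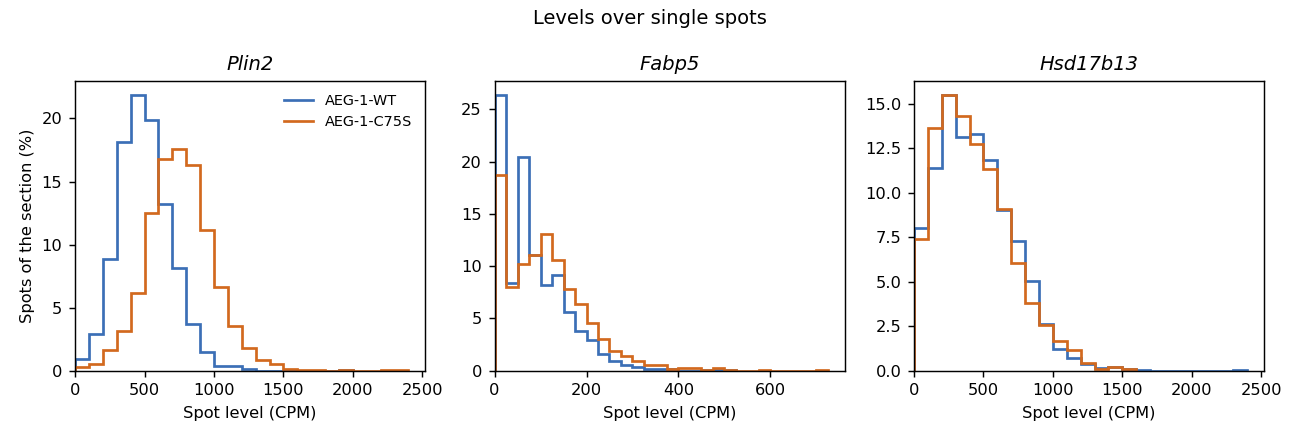
Share of the spots of each section (y axis, %) by spot level in CPM (x axis) for Plin2, Fabp5 and Hsd17b13. The whole Plin2 distribution of C75S is shifted to the right, with medians of 488 and 752 CPM, Fabp5 is shifted less, and the Hsd17b13 curves lie on each other.

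Plin5, the perilipin that ties droplets to mitochondria in oxidative tissues, was low and level between the ends of the axis. It had 369 UMIs in WT and 357 in C75S (8.73 and 8.57 CPM), a log2 ratio of -0.03 whose interval of -0.24 to 0.19 leaves room for a small difference in either direction. Its quintiles ranged from 8.07 to 9.39 CPM in WT and from 6.52 to 9.97 CPM in C75S, without a gradient beyond counting error between quintiles 1 and 5 (0.17, -0.34 to 0.67, and 0.08, -0.39 to 0.55). Of the 4 steps in C75S, 1 was beyond counting error, a fall from quintile 1 to quintile 2 (-0.61, -1.13 to -0.11). Relative to Plin5, Plin2 was higher in C75S by 0.65 on the log2 scale (0.44 to 0.86), so these 2 perilipins differed in how they compared between the sections. This difference was above 0 in all 5 quintiles and beyond counting error in 4 of them. A UMI of Plin5 was found in 14.8% of WT spots and 15.1% of C75S spots. The gene lies at chr17:56111597-56117606 on the minus strand.

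Cidec, which encodes a droplet protein that lets droplets fuse and grow and is abundant in fat tissue, was near the limit of detection. It had 21 UMIs in WT and 39 in C75S, with at most 1 UMI in any spot, that is in 0.909% and 1.80% of spots. By quintile there were 3, 7, 3, 3 and 5 UMIs in WT and 7, 6, 8, 13 and 5 in C75S. The log2 ratio of 0.91 was past the fold, but its interval of 0.11 to 1.75 reached far below it, and the gene was no longer compared when at least 200 UMIs were asked for. Adipocyte markers were close to absent, with 9 UMIs in WT (Retn at 0) and 3 in C75S (Plin1, Lep and Retn at 0). Cidec lies at chr6:113424634-113435760 on the minus strand.

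In the lipolysis pair the inhibitor was lower and the lipase slightly higher in C75S, each by less than the fold. Pnpla2, the gene of adipose triglyceride lipase (chr7:141455188-141460743, plus strand), had 3848 UMIs in WT and 4047 in C75S, or 91.1 and 97.1 CPM (log2 ratio 0.09, 0.03 to 0.16). G0s2, its inhibitor (chr1:193272160-193273188, minus strand), had 2175 and 1890 UMIs, or 51.5 and 45.4 CPM (log2 ratio -0.18, -0.27 to -0.09). These differences are small beside the spread of all genes, whose 5th and 95th percentiles were -0.60 and 0.40.

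Along the lobule, Pnpla2 was nearly flat and G0s2 mildly central. The log2 portal over central ratio of Pnpla2 was -0.15 (-0.29 to -0.001) in WT and -0.09 (-0.23 to 0.04) in C75S. The gradients of Pnpla2 differed by 0.05 (-0.15 to 0.25). With spots thinned to 3000 UMIs, a single random draw from the same UMIs, they differed by 0.91 (0.41 to 1.41). With equal weight per spot and all UMIs, the ratios were -0.17 in WT and -0.12 in C75S. Pnpla2 had 91.6, 85.7, 87.3, 90.4 and 101 CPM in the WT quintiles and 101, 90.7, 90.1, 96.6 and 108 CPM in those of C75S, with the highest value in quintile 5 of both. G0s2 had 41.5, 48.1, 52.7, 52.2 and 63.1 CPM in WT and 39.1, 39.3, 46.1, 49.6 and 52.8 CPM in C75S. Its log2 portal over central ratio was -0.61 (-0.81 to -0.40) in WT and -0.43 (-0.65 to -0.22) in C75S, so that it passed the fold in WT alone. The gradients of G0s2 differed by 0.17 with an interval of -0.12 to 0.46. Without the 5% of spots richest in portal tract markers, G0s2 passed the fold in both sections (-0.64 in WT and -0.51 in C75S). Few neighbouring quintiles of these genes differed beyond counting error: 1 of 4 steps for Pnpla2 and 2 of 4 for G0s2 in WT, and 2 and 1 in C75S.

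The UMIs of G0s2 per UMI of Pnpla2 depend on both probe sets, and only their comparison between sections can be read. They were 0.565 in WT and 0.467 in C75S, a log2 difference of -0.28 (-0.38 to -0.17). From quintile 1 to quintile 5 the ratio was 0.453, 0.561, 0.603, 0.577 and 0.622 in WT and 0.388, 0.434, 0.511, 0.514 and 0.491 in C75S. It was lower in C75S in all 5 quintiles, beyond counting error in 2 of them. Plin2 per UMI of Pnpla2 was higher in C75S in all 5 quintiles, by 0.53 (0.46 to 0.60) over the whole sections.

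Both fatty acid binding proteins were higher in C75S. Fabp1, the liver form and one of the most abundant cytosolic proteins of hepatocytes (chr6:71199879-71205034, plus strand), had 38126 UMIs in WT and 41563 in C75S, or 902 and 997 CPM (log2 ratio 0.14, 0.12 to 0.16). Fabp5, the epidermal form, also found in macrophages and endothelial cells (chromosome 3, 10012585 to 10016610), had 3456 and 4693 UMIs, or 81.8 and 113 CPM. This is 1.38-fold more in C75S (log2 ratio 0.46, 0.40 to 0.52), just under the fold, which it passed at 0.51 to 0.52 when ratios were centred on the median gene, scaled by TMM or taken over totals without the 20 most abundant genes. It was the 468th highest ratio of the 12004 genes.

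The central gradient of Fabp1 was flatter in C75S. The levels from quintile 1 to quintile 5 were 781, 792, 889, 925 and 1135 CPM in WT and 961, 895, 973, 1009 and 1152 CPM in C75S. The log2 ratios of the sections were 0.30, 0.18, 0.13, 0.13 and 0.02. The low last value depends on ranking the spots within each section: with limits shared by the sections, the ratios were 0.30, 0.20, 0.16, 0.13 and 0.15. The log2 portal over central ratio was -0.54 (-0.59 to -0.49) in WT and -0.26 (-0.30 to -0.22) in C75S, a difference of 0.28 (0.21 to 0.34). With the shared limits it was 0.14 (0.08 to 0.21), and with 3 regions in place of 5 it was 0.18 (0.13 to 0.23). Gradients differed by more than 0.5 for 9.33% of 9736 genes and for none of the 8 genes compared here.

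Fabp5 was also mildly central in both sections. It had 58.4, 78.0, 84.8, 88.6 and 98.6 CPM in WT and 90.1, 106, 129, 115 and 123 CPM in C75S, where quintile 3 was the highest. The log2 ratios were 0.62, 0.44, 0.61, 0.37 and 0.32, all above 0 beyond counting error and past the fold in quintiles 1 and 3. In quintiles 1 to 5, 10.8%, 12.2%, 11.1%, 10.9% and 10% of the genes compared were past it. Its gradient was -0.75 (-0.92 to -0.59) in WT and -0.45 (-0.59 to -0.31) in C75S, a difference of 0.30 (0.09 to 0.52). After thinning, which leaves fewer UMIs, the difference was again 0.30, with a wider interval that included 0 (-0.24 to 0.84). Fabp5 per UMI of Fabp1 was higher in C75S by 0.32 (0.25 to 0.38) and in each of the 5 quintiles beyond counting error. A Fabp5 UMI was found in 73.7% of WT spots and 81.3% of C75S spots, and 65.5% of the latter were above the WT median of 68.9 CPM.

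**Figure D4:**
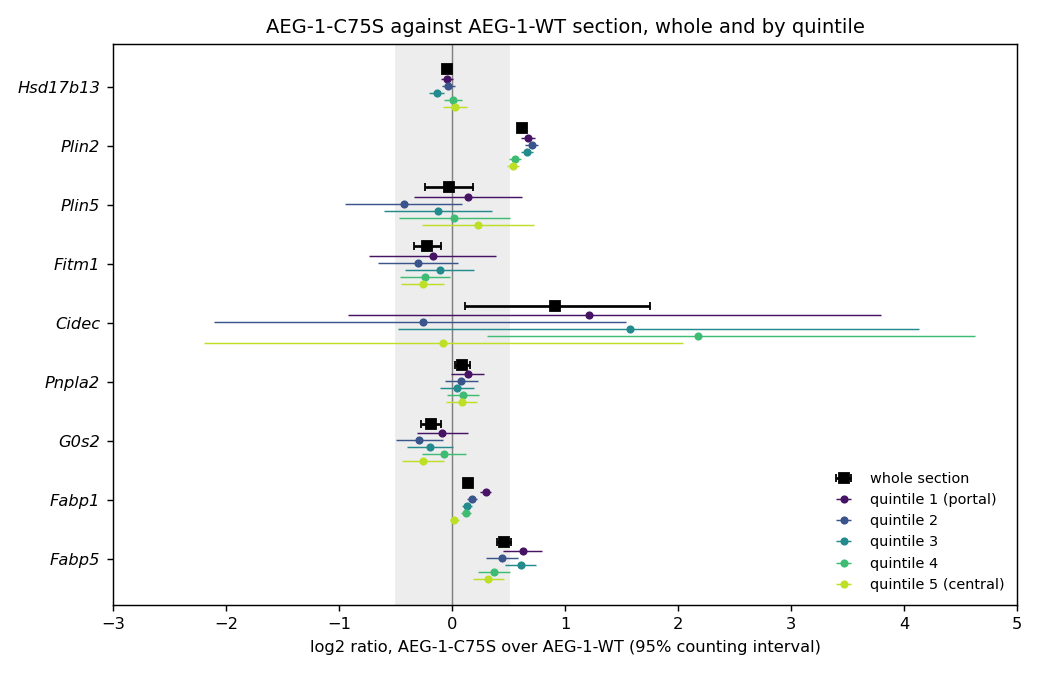
Log2 ratio of C75S over WT (x axis) for each gene (y axis) over the whole sections (squares) and in quintiles 1 to 5 (circles), with 95% counting intervals and the range within ±0.5 shaded. Plin2 lies outside the shaded range in every quintile (0.54 to 0.70), Fabp1 goes from 0.30 at the portal to 0.02 at the central end (0.15 with limits shared by the sections), and Cidec has intervals that cover most of the axis.

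The methods use Fabp5 as a Kupffer cell marker, and the markers of Kupffer cells differed between the sections in the same direction. Without Fabp5, the 4 Kupffer cell markers (Marco, Clec4f, Cd5l and Vsig4) summed to 784 CPM in WT, with quintiles from 651 to 875, and to 1046 CPM in C75S, with quintiles from 863 to 1211. Marco, at a log2 ratio of 1.62, was the 1 of 4 past the fold, and none was at 0 UMIs. The others were uneven, with Cd5l at 0.44, Vsig4 at 0.42 and Clec4f at only 0.10. The 4 stellate cell markers (Ecm1, Colec11, Dcn and Reln) summed to 551 and 703 CPM, with none past the fold, and the 4 endothelial markers (Stab2, Clec4g, Lyve1 and Pecam1) to 312 and 329 CPM. To set Fabp5 beside the Kupffer cell markers from spot to spot, the spots of each quintile were divided into those rich and those poor in these markers. The markers summed to 1088 CPM in the rich and 495 in the poor spots of WT, and to 1391.5 and 684 CPM in C75S. The rich spots had 80.2 CPM of Fabp5 in WT and the poor spots 83.3 CPM (log2 ratio -0.05, -0.15 to 0.04), and in C75S they had 115 and 111 CPM (0.05, -0.03 to 0.13). In neither section was Fabp5 higher in the rich spots beyond counting error. Marker counts of single spots carry counting error and each spot mixes cell types, so this split cannot tell which cells hold Fabp5.

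No other of the genes was higher in spots rich in Kupffer cell markers beyond counting error. Plin2 differed by 0.03 (-0.01 to 0.07) in WT and by -0.004 (-0.04 to 0.03) in C75S between rich and poor spots, and in C75S the rich spots were lower in Fitm1 (-0.23, -0.40 to -0.05) and Pnpla2 (-0.12, -0.21 to -0.03). Split by the stellate cell markers, Fabp5 differed by -0.08 (-0.18 to 0.02) in WT and by -0.01 (-0.09 to 0.07) in C75S. Fabp1 was lower in spots rich in any of the Kupffer, endothelial, stellate, cholangiocyte and portal connective tissue lists, by -0.14 to -0.06 in both sections. Markers of portal tracts were lower in C75S. The 4 cholangiocyte markers (Spp1, Epcam, Krt19 and Krt7) summed to 119 and 87.7 CPM, and the 3 portal connective tissue markers (Mgp, Dpt and Col1a1) to 67.9 and 23.6 CPM. Red blood cell markers summed to 611 and 404 CPM. Without the 5% of spots richest in portal tract markers, the log2 ratio of Plin2 was 0.62. The part of portal tracts and of red blood cells in the differences was not tested.

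Of 42 other genes on 4 lists of the same pathways, 37 had enough UMIs, and 1 was past the fold upward and 1 downward, beside 10.4% of all genes. The count of 2 became 5 when ratios were centred, scaled by TMM or taken over totals without the 20 most abundant genes. The 37 genes had a median log2 ratio of 0.00 against -0.05 over all genes. Plin1, Cidea, Pnpla3, Mogat1 and Fabp3 had too few UMIs to compare. Lpin1, which makes diacylglycerol on the way to triglyceride and also acts as a coregulator of transcription, had 1766 UMIs in WT and 3014 in C75S (log2 ratio 0.79, 0.71 to 0.88), and its ratios in the quintiles were 0.65 to 0.998. Plin4, another perilipin, had 40 and 18 UMIs (-1.13, -2.02 to -0.30), and was not among the genes past the fold with thinning or with spots matched on total UMIs. The median was -0.09 for 9 droplet proteins, 0.01 for 9 lipolysis genes, -0.04 for 9 triglyceride synthesis genes and 0.05 for 10 genes of fatty acid uptake and binding.

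Several genes came close to the fold without passing it. Acsl1, which activates fatty acids, was at 0.48, the fatty acid translocase Cd36 at 0.47 and Hilpda, another inhibitor of the Pnpla2 lipase, at 0.46 with an interval that includes 0 (-0.02 to 0.94). Lipe, the hormone-sensitive lipase, was at -0.47 and Dgat2, which completes triglyceride synthesis, at -0.44. Abhd5, the activator of the Pnpla2 lipase, was at 0.09 (-0.02 to 0.20), next to Pnpla2 itself. Along the axis, 35 of these genes could be compared, and 6 were past the fold in both sections, beside 6.02% of all genes. Lpin1 was the portal one (0.81 in WT and 0.66 in C75S). Fitm2, the paralog of Fitm1, was central as well, but much less so (-0.66 and -0.77). Between the sections Fitm2 was higher in C75S (0.43, 0.34 to 0.53), while Fitm1 was lower (-0.22). Hsd17b11, the paralog of the portal Hsd17b13, was central too (-0.58 and -0.60). So were the carboxylesterase Ces1d (-0.81 and -0.64), Fabp2 (-0.93 and -0.60) and Fabp4 (-0.86 and -0.82).

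**Figure D5:**
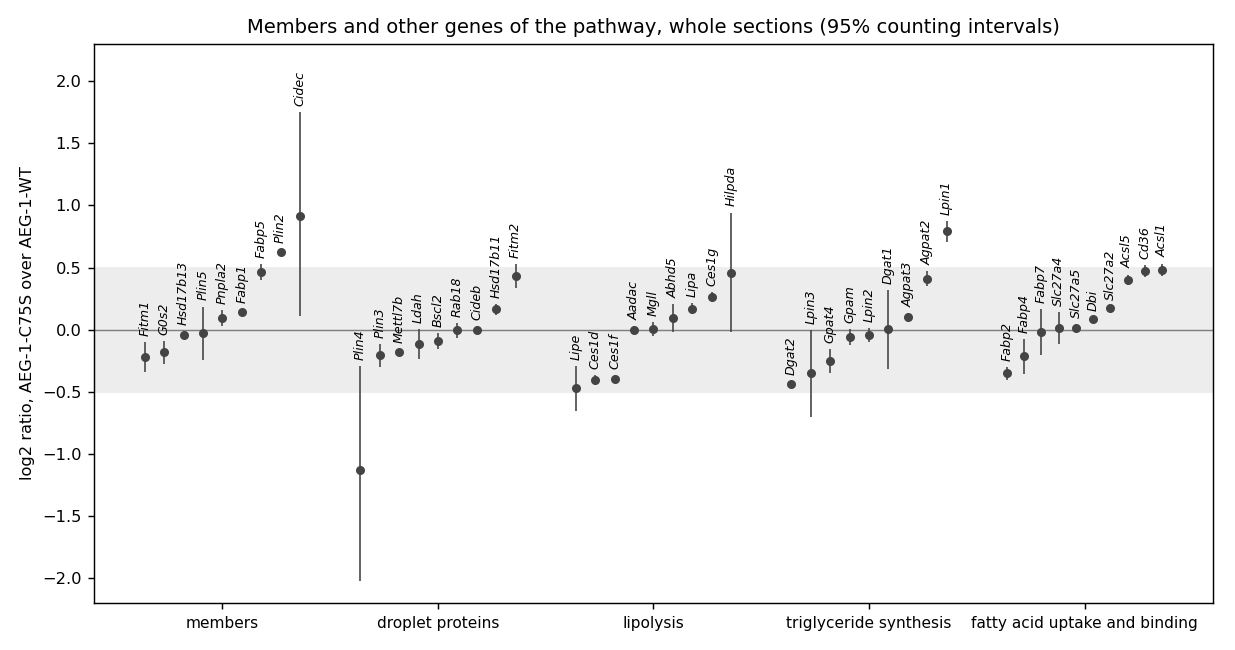
Log2 ratio of C75S over WT over the whole sections (y axis) for the 9 genes and for the compared genes of 4 pathway lists (x axis, in order of the ratio within each list), with 95% counting intervals as bars and the range within ±0.5 shaded. Apart from Plin2 and Cidec, Lpin1 (0.79) and Plin4 (-1.13) are the points outside the shaded range.

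The genes whose levels ran most like those of each gene were sought over the 10 combinations of section and quintile, among 6886 genes with at least 1000 UMIs. Plin5 and Cidec had too few UMIs for this. Fitm1 ran with Gulo, Slco1a1 and Cyp1a2 (Pearson r of log2 CPM 0.994, 0.993 and 0.993), and Hsd17b13 with Sdsl, Cdh1 and Rida (0.994, 0.993 and 0.993). Plin2, whose pattern is mostly the difference between sections, ran with Slc25a30, Igfbp1 and Adipor2 (0.994, 0.991 and 0.991). For Fabp5 these were Ugt1a5, Rdh11 and Cyp51 (0.985, 0.977 and 0.972), and for Fabp1 Psmc6 and Psmb7 (0.984 and 0.982). G0s2 ran with Cyp4f14, Bnip3 and Dap3 (0.985, 0.982 and 0.978) and Pnpla2 with Pank1, Abcb4 and Rbbp4 (0.976, 0.964 and 0.954). Points of a section share its library and its axis, and the coefficients describe these 10 points alone. Between the genes themselves, Hsd17b13 and Fitm1 were the most opposed (-0.955), and the highest coefficients were those of Fitm1 with G0s2 (0.886) and Plin2 with Fabp5 (0.878).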

How the data were processed

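The deposited tables hold raw UMI counts per gene and tissue spot, not normalized, which the authors obtained by aligning probe reads to mm10 in Space Ranger 2.0.1. The submitters' processing notes also name Seurat 4.3.0. No column of another sample was present (0 columns). Spots with over 50000 UMIs were removed (7 and 4), as in the methods, UMIs were summed per section and per quintile and scaled to 1000000 (CPM). Intervals at 95% are exact Poisson intervals for sums, exact binomial (Clopper-Pearson) intervals of the pair of sums for ratios, and log-normal intervals for differences of log2 ratios. Spots rich and poor in a marker list were split within each quintile. Python 3.11.15, numpy 2.4.6, scipy 1.17.1 and pandas 2.3.3 were used, with R 4.3.3 and edgeR 4.0.16 for TMM factors. The ratio intervals were tested on simulated Poisson counts and the division into quintiles on random values. The other steps were not tested on simulated data. Promoter windows and gene positions come from RefSeq (GRCm38.p6).

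The members and the lists were chosen with earlier results of these data known. Named were all 9 genes, the pathway genes past the fold over the sections or along the axis, the marker genes of lists set beside a result, and the 3 genes most like each member, of which 1 for Fabp1 is not reported here. Acsl1, Cd36, Hilpda, Lipe, Dgat2, Abhd5 and Fabp7 were named after their values were seen. The alternatives were other filters, scalings, weights, folds, minimums, depths and axes. Spot coordinates were not used here.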

Additional observations from a re-analysis of the deposited data

How the results depend on the processing

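No paired analysis was possible because there was 1 section per genotype, and for the same reason no replicate could be left out. Of the recomputed counts of genes past the fold, 36 stayed within 1.5 times the reported count and 15 did not. Over the whole sections, the 2 of the 9 genes became 1 (Plin2) with thinning to 3000 UMIs per spot (which left out 4 and 3 spots), a minimum of 200 UMIs or spots matched on total UMIs, and 0 at a log2 fold of 1. In all 5 quintiles, the count of 1 became 0 with thinning, with the axis from Hal, Gls2 and Sds over Cyp1a2 and Oat or at a log2 fold of 1, and 2 (Plin2 and Fabp5) at 0.3. Along the axis, 2 became 4 at a fold of 0.3, with G0s2 and Fabp5 added, and 3 without the portal tract spots, with G0s2 added. Of the pathway genes, the 2 became 5 without the 20 most abundant genes in the total, with centring or with TMM (Hilpda, Cd36 and Acsl1 added), 14 at 0.3, and 1 at a fold of 1 or a minimum of 200 UMIs. Their number stayed within 1.5 times but Plin4 was replaced by Fitm2 and Lipe with thinning and by Hilpda with spots matched on total UMIs. Hsd17b13 changed sign between the sections, to 0.0016, 0.0098 and 0.0136 without the 20 most abundant genes, with centring and with TMM. The minimum of 200 UMIs and the other folds act by construction, and for the other settings the cause was not tested. Plin2 stayed between 0.59 and 0.68 over the 8 alternatives that change its value. Thinning leaves few UMIs for the low genes. With it, Plin5 went from -0.03 to 0.38. The portal over central ratio of Pnpla2 went from -0.15 to -0.39 in AEG-1-WT and from -0.09 to 0.52 in AEG-1-C75S. The difference between these thinned gradients, in a single random draw, was 0.91 (0.41 to 1.41). With all UMIs it was 0.05 (-0.15 to 0.25). The cause of this change was not tested.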
